A study of Mus musculus with 8 samples.

Results

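The apolipoprotein genes were followed across 3 groups of Fah-/- mouse livers and liver tumors. They are the 10 genes of the expression table whose symbols are Apoa1, Apoa2, Apoa4, Apoa5, Apob, Apoc1, Apoc3, Apoe, Apoh and Apom, out of 22504 genes listed. All 8 mice were Fah-/- on the 129S4 background, and so lacked the last enzyme of tyrosine breakdown. NTBC, an inhibitor of an earlier step of the pathway, protects such mice, and they drank it at 7.5 mg/L before the experiment. Moderate chronic liver injury (MCLI) was induced by lowering NTBC to 2.5% of the curative dose, and severe acute liver injury (SALI) by taking it away. The C 8w group (3 mice, samples 1a, 2a and 3a) had 8 weeks of MCLI, and the C 8w + A 4w group (3 mice, samples C096, C097 and C098) had 8 weeks of MCLI and then 4 weeks of SALI. The C 12w group (2 mice, samples 2e and 3e) had 12 weeks of MCLI. Per the labels the C 12w samples are tumor tissue and the samples of the other groups liver. There was no group of uninjured mice, no age was given, and no adjacent liver of the C 12w mice was analysed here. C 8w + A 4w is also the only group of its series of sample codes, so the group and the series cannot be told apart.

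Apolipoproteins are the protein part of the particles that carry fat and cholesterol in blood. Hepatocytes secrete most of them, Apob as the structural protein of very low density lipoprotein (VLDL) and low density lipoprotein, and Apoa1 and Apoa2 as the main proteins of high density lipoprotein (HDL). The smaller ones move between particles and steer their fate: Apoc3 slows and Apoa5 speeds the release of fatty acids by lipoprotein lipase, and Apoe is the ligand by which receptors take up particle remnants. Several of the genes lie side by side in the genome. In the GENCODE M21 annotation Apoa1, Apoc3, Apoa4 and Apoa5 are consecutive protein-coding genes of chromosome 9, and Apoc1 lies next to Apoe on chromosome 7.

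Values are FPKM as the authors deposited them, that is, fragments scaled to the length of the gene and to the mapped fragments of the sample, so that levels of different genes can be compared per length. Read numbers are not kept on this scale, so the depth is unknown and counting error could not be given. The sum over the table was 324735 to 399342 FPKM per sample, and the 10244 genes that reached 1 FPKM in 4 or more samples were tested. Hepatocyte genes were present in every sample, for example Cps1, a urea cycle enzyme, at 199.6 to 886 FPKM. The RNA protocol of the labels names retinas, but 13 of 16 retina markers were below 1 FPKM in all 8 samples and the highest value of any was 3.57. Alb, the albumin gene, was listed at 0 in each C 8w and C 12w sample and at 12946 to 16949.8 FPKM in the SALI-treated livers of C 8w + A 4w, and Gapdh, a glycolytic enzyme of every cell, at 0.0980 to 0.247 against 68.2 to 99.9. In all, 5 genes were listed at 0 throughout C 8w and C 12w and at 10 FPKM or more in each C 8w + A 4w sample, and 0 genes the other way round. Tpt1 and the ribosomal protein gene Rpl10, active in every cell, were at 1.41 to 4.05 and 2.23 to 2.53 FPKM in C 8w and at 630 to 691 and 498 to 623 in C 8w + A 4w, with log2 fold changes of 7.44 and 7.31 (limma adjusted p = 5.3e-07 and 1.1e-08). Whether both series of codes were quantified in the same way is not given in the sources used here, so that a difference in quantification and the difference of C 8w + A 4w from the other groups cannot be told apart in any gene. C 8w and C 12w share a series. The transcript of Fah, the inactivated gene, was listed at 15.6 to 16.8 FPKM in C 8w, 5.02 to 6.36 in C 8w + A 4w and 13.5 to 14.4 in C 12w, and which of its exons gave these reads is not kept in the table. None of the 10 apolipoprotein genes was listed at or near 0, and the lowest value of any was 83.0 FPKM (Apoa4 in 3e).

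The apolipoprotein genes were among the most abundant transcripts of every sample. Together they took 6.53% to 7.23% of the summed FPKM in C 8w, 4.32% to 5.14% after SALI, and 7.32% (2e) and 5.18% (3e) in the C 12w tumors. Of the 20 genes with the highest FPKM of a sample, 4 were apolipoprotein genes, or 5 in sample 2e. In C 8w the order by mean level ran from Apoc1 (7596 ± 417 FPKM, mean ± SD, n = 3) through Apoe (5551 ± 384), Apoa2 (4960.1 ± 749), Apoa1 (3114 ± 557), Apoh (1542 ± 72.1) and Apoc3 (1327 ± 141) to Apom (446 ± 41.4), Apoa5 (325 ± 32.0), Apob (253 ± 35.6) and Apoa4 (217 ± 57.2). The samples of Apoe and Apoa2, of Apoh and Apoc3, and of Apob and Apoa4 overlapped, so the order within these pairs was not resolved. The order in C 8w + A 4w was led by Apoa1 (6365 ± 505 FPKM, n = 3), above Apoc1 (3899 ± 639), Apoe (3270.4 ± 419), Apoa2 (2282 ± 145), Apoh (1280.1 ± 167) and Apoc3 (393 ± 26.1). Apoc1 and Apoe overlapped there, as did each neighbouring pair from Apoc3 through Apom (332 ± 41.4), Apob (279.7 ± 50.9) and Apoa4 (279.3 ± 172) to Apoa5 (172 ± 15.3). Apoa1, the fourth by mean level in C 8w, was the highest of the 10 genes in all 3 C 8w + A 4w samples and in both C 12w samples.

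**Figure D1:**
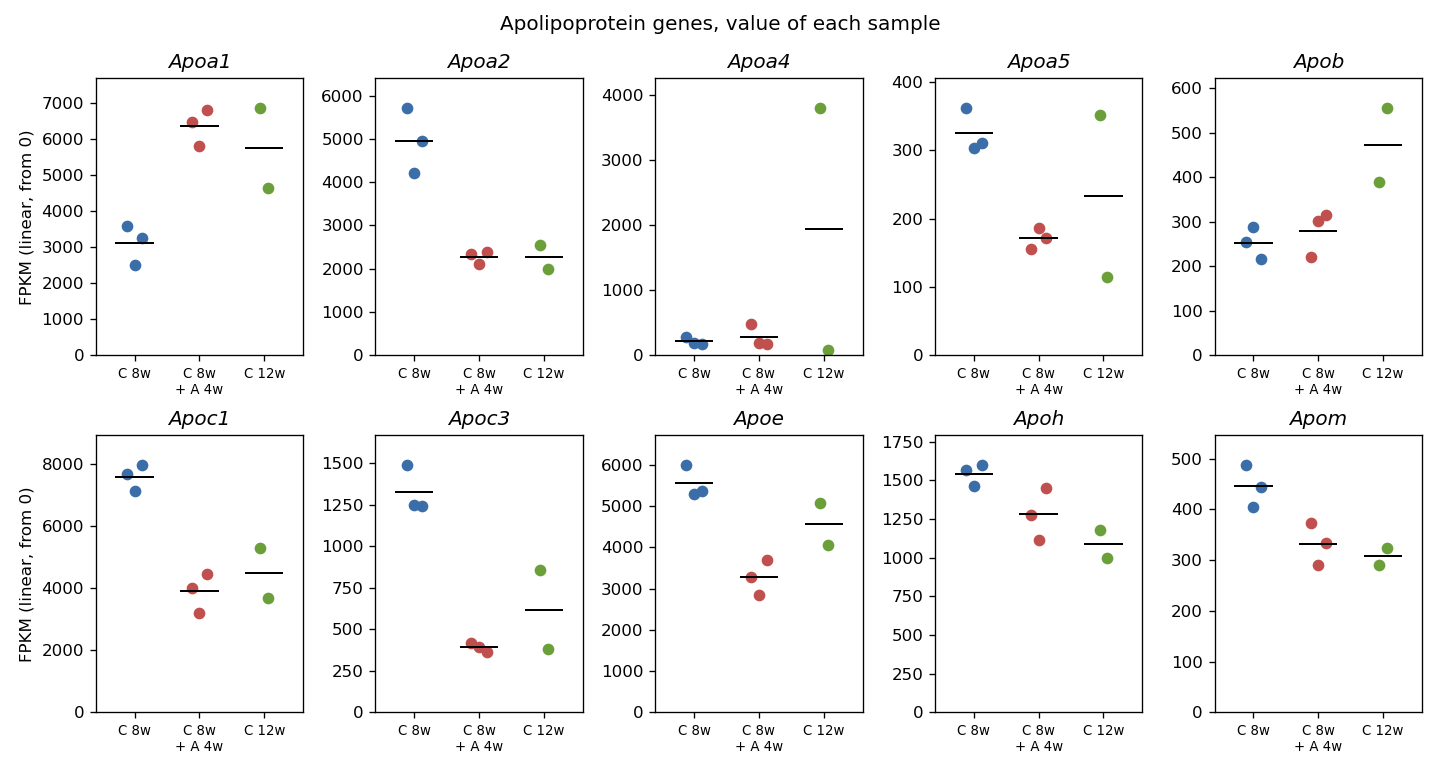
FPKM of each apolipoprotein gene (linear vertical axes that start at 0, one panel per gene) in the 3 samples of C 8w, the 3 of C 8w + A 4w and the 2 of C 12w. Points are samples and the black bars are group means; the C 8w + A 4w samples of Apoa1 lie above those of C 8w, those of Apoa2, Apoc1, Apoc3 and Apoe lie below, and the C 12w samples of Apoa4 lie at 3800.4 and 83.0 FPKM.

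The stretch just upstream of a gene is shown for 4 members that carry the results below: Apoa1, the member that rose in C 8w + A 4w, Apoa2, which fell in both comparisons with C 8w, Apob, the member that rose in C 12w, and Apoa4, which differed most between the C 12w samples. The sequences are the 250 bases before the transcription start from RefSeq on GRCm38.p6, all on the plus strand, at chr9:46228380-46228629 (Apoa1), chr1:171224804-171225053 (Apoa2), chr12:7977427-7977676 (Apob) and chr9:46240594-46240843 (Apoa4). Capitals mark matches, on either strand, to TATAAA (the TATA box), AGGTCA (a half-site of nuclear receptors), CAAAGNNCA (a core of HNF4 sites) or TTGCNNAA (C/EBP).
Apoa1: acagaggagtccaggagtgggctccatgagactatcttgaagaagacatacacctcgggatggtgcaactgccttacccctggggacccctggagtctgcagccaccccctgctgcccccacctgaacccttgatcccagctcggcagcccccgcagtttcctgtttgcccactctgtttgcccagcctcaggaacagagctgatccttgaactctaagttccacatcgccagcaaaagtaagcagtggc
Apoa2: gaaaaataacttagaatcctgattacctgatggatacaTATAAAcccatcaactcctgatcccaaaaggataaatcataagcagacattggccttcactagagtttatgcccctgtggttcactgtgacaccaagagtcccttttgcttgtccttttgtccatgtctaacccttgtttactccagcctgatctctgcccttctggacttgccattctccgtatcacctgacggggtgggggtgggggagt
Apob: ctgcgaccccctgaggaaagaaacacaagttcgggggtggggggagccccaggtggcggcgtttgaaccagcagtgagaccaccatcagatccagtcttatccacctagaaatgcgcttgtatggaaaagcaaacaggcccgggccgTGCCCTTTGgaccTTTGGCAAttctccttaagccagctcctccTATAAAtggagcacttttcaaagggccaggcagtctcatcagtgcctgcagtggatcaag
Apoa4: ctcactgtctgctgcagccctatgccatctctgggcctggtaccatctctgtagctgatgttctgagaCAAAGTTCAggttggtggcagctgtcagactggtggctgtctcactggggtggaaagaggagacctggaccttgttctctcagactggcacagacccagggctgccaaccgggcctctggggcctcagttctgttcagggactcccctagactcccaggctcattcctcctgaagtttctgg
The Apoa1 stretch held none of these motifs, and the match in Apoa2 was a TATAAA 212 to 207 bases before the start. Apob held TATAAA 60 to 55 bases before the start, the HNF4 core on the opposite strand at 103 to 95, and the C/EBP motif on the opposite strand at 90 to 83. Apoa4 held the HNF4 core at 182 to 174. Among 32536 such stretches of the mouse genome TATAAA occurred in 12.3%, AGGTCA in 14.0%, CAAAGNNCA in 5.51% and TTGCNNAA in 9.57%. Of the other 4 members with an entry, Apoa5 held TATAAA at 31 to 26, Apoh held AGGTCA on the opposite strand at 215 to 210 and the HNF4 core at 93 to 85, and Apoe and Apom held none. Apoc1 and Apoc3 had no entry among the sequences used. A match of letters is not a measured binding site.

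The first comparison set the livers that had 4 weeks of SALI after MCLI against those taken at the end of 8 weeks of MCLI. The SALI, the 4 added weeks and the series of codes cannot be told apart in it. The mean FPKM of Apoa1 was 2.04-fold higher in C 8w + A 4w, and Apoc3, Apoa2, Apoc1 and Apoe fell, the mean of Apoc3 by 3.38 times and that of Apoa2 by 2.17 times. Of the 10 genes, 5 passed the test (1 higher and 4 lower), a limma adjusted p under 0.05, where 39.4% of all genes tested passed it, 25.3% higher and 14.1% lower. The median log2 fold change of the 10 genes was -0.60 and that of all genes tested 0.12. Scaling moved the latter, to 0.01 after median-ratio scaling, and with it the share of higher genes among all called, which was 64.2% as deposited, 50.2% after median-ratio scaling, 53.5% at the same summed FPKM and 47.1% after quantile normalization, while the 5 genes kept their direction under each. The samples of the groups did not overlap for 8 of the 10 genes, 1 higher and 7 lower after SALI, where 61.4% of all genes tested lay apart, 39% higher and 22.3% lower.

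Apoa1 and Apoa2, the main proteins of HDL, moved in opposite directions. Apoa1, which builds HDL and activates the cholesterol-esterifying enzyme LCAT, was at 3577.5, 2496 and 3267 FPKM in the C 8w mice and at 6466, 5817 and 6812 in C 8w + A 4w. Every C 8w + A 4w sample lay above every C 8w sample, and the log2 fold change was 1.04 (SE 0.25, limma adjusted p = 0.0107). Apoa2, the second protein of HDL, was at 5711, 4213 and 4956 FPKM in the C 8w mice and at 2344, 2116 and 2386 in C 8w + A 4w. The groups did not overlap, and the log2 fold change of Apoa2 was -1.11 (SE 0.21, limma adjusted p = 0.00380). Apom, which carries sphingosine-1-phosphate on HDL, was at 487, 405 and 445 FPKM in the C 8w mice and at 373, 289.9 and 335 in C 8w + A 4w. Its samples did not overlap either, but its log2 fold change of -0.43 (SE 0.15) did not pass the test (limma adjusted p = 0.0538). Apom passed in a fit of the 2 groups compared alone (limma adjusted p = 0.0299). It also passed with a floor of 10, without a trend, after median-ratio scaling and at the same summed FPKM (0.0298 to 0.0468). It did not pass with a pseudocount of 0.1 (0.053), after quantile normalization (0.065), without a filter (0.0792) or with any one sample of these groups left out (0.0518 to 0.182). Within each sample the ratio of Apoa1 to Apoa2 was therefore 0.593 to 0.659 in C 8w and 2.75 to 2.85 in C 8w + A 4w, a quantity that multiplying a sample by a constant cannot change.

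Among the proteins that steer triglyceride-rich particles, Apoc3 had the largest fold change of the 10 genes. Apoc3, an inhibitor of lipoprotein lipase and of remnant uptake, was at 1489.8, 1250.3 and 1242 FPKM in the C 8w mice and at 419, 392 and 367 in C 8w + A 4w. The C 8w mean was 3.38 times that of C 8w + A 4w, and the log2 fold change was -1.75 (SE 0.28, limma adjusted p = 0.00170). Apoa5, which acts against Apoc3 in promoting lipolysis, was at 362, 304 and 310.2 FPKM in the C 8w mice and at 156, 187 and 172 in C 8w + A 4w. Although its groups did not overlap, its log2 fold change of -0.92 (SE 0.35) did not pass the test (limma adjusted p = 0.0649). This SE draws on the spread of all 3 groups, and in C 12w Apoa5 was at 352 and 115 FPKM. In a fit of the 2 groups compared alone the same fold change passed (limma adjusted p = 0.00062). Apoa5 also passed at the same summed FPKM (0.0352), but not after quantile normalization (0.0578), median-ratio scaling (0.0584) or without a filter (0.128). In Apoa4, made by intestine and by mouse liver, the samples were at 283, 188 and 180.4 FPKM in the C 8w mice and at 477, 193 and 168 in C 8w + A 4w. These overlapped, and its log2 fold change was 0.23 (SE 1.15, limma adjusted p = 0.889). In this fit the 95% interval, from -2.41 to 2.87, leaves changes of several fold in either direction undetermined. Its width also draws on the spread within C 12w, where Apoa4 was at 3800.4 and 83.0 FPKM. It is therefore not a measure of the spread of the samples compared here alone. When C 12w was left out of the fit, the same fold change did not pass either (limma adjusted p = 0.632).

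Apoc1 and Apoe, neighbours on chromosome 7, both fell. Apoc1, a small exchangeable protein that slows remnant uptake, was at 7674, 7145 and 7969 FPKM in the C 8w mice and at 4014, 3210.0 and 4472 in C 8w + A 4w. Its groups did not overlap, and its log2 fold change was -0.97 (SE 0.24, limma adjusted p = 0.0127). Apoe, the receptor ligand of remnants, was at 5994, 5299 and 5361 FPKM in the C 8w mice and at 3279, 2848 and 3685 in C 8w + A 4w, again without overlap. Its log2 fold change was -0.77 (SE 0.21, limma adjusted p = 0.0204). Macrophages also make Apoe, and the summed FPKM of 16 macrophage markers was 303 to 366 in C 8w and 278 to 779 in C 8w + A 4w, the highest value being that of C097, the sample with the lowest Apoe. In such tissue samples fewer cells of a type and less RNA per cell cannot be told apart.

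The structural protein of VLDL and the phospholipid-binding Apoh showed no called difference. Apob was at 256, 288 and 217 FPKM in the C 8w mice and at 221, 302 and 316 in C 8w + A 4w, which overlapped. Its log2 fold change was 0.13 (SE 0.21, limma adjusted p = 0.631), with a 95% interval from -0.34 to 0.61. Apoh, a plasma glycoprotein that binds anionic phospholipids, was at 1566, 1461 and 1599 FPKM in the C 8w mice and at 1275, 1116 and 1449 in C 8w + A 4w. The lowest C 8w sample lay just above the highest C 8w + A 4w sample, and the log2 fold change of -0.28 (SE 0.17) did not pass the test (limma adjusted p = 0.237).

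**Figure D2:**
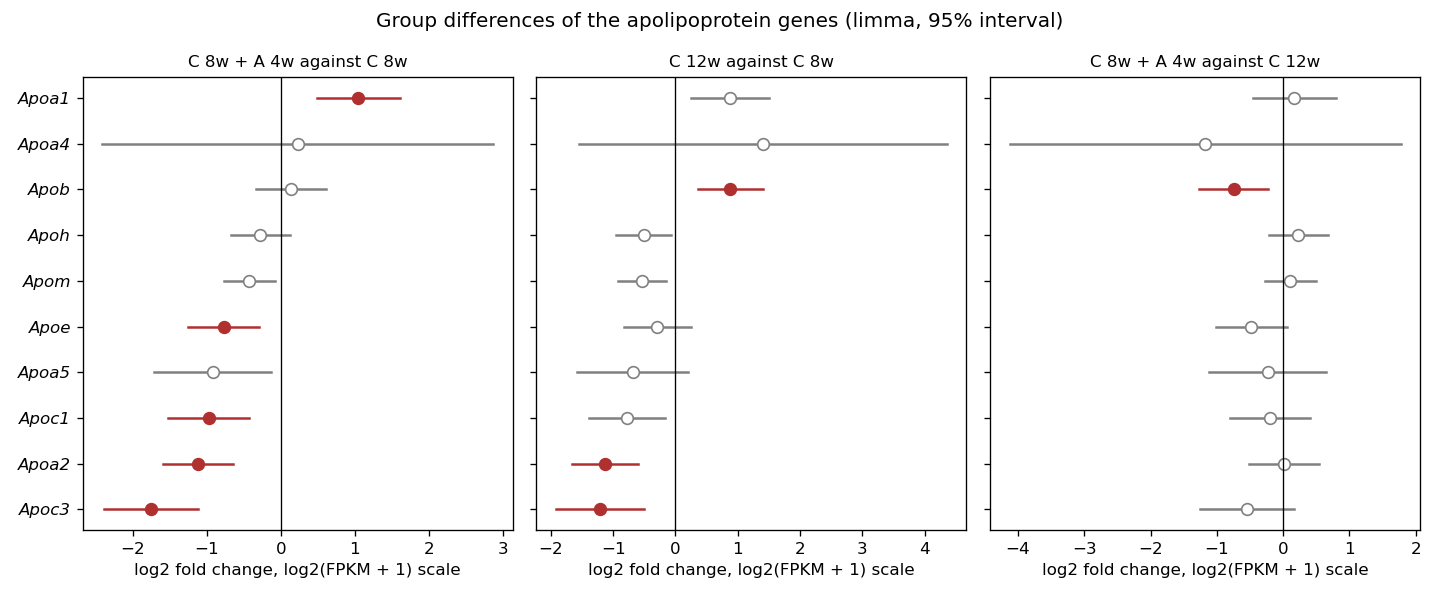
Log2 fold changes of the 10 genes on the log2(FPKM + 1) scale (horizontal axes) in the 3 comparisons, with 95% intervals from limma as bars. Filled red points have an adjusted p under 0.05 and open grey points do not; 5 points are filled for C 8w + A 4w against C 8w, 3 for C 12w against C 8w and 1 for C 8w + A 4w against C 12w, and the bars of Apoa4 are the widest in each panel.

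Of the 5 calls, those of Apoc3 and Apoa2 held without each of the 8 samples in turn. Leaving out single samples took 3 calls: that of Apoa1 was lost without 2a (limma adjusted p = 0.0562), that of Apoc1 without 1a (0.0532) or C097 (0.0640), and that of Apoe without any one of 1a, 2a, 3a, C096 and C097 (0.0565 to 0.0927), so that 3 of the 10 genes were called without 1a, without 2a or without C097. Without the filter on low values the call of Apoc3 alone was kept (limma adjusted p = 0.0890 for Apoa2 and 0.219 to 0.321 for the others), and quantile normalization took that of Apoe (log2 fold change -0.41, limma adjusted p = 0.0628).

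The second comparison asked how the C 12w tumors differed from the livers after 8 weeks of MCLI; it uses the same C 8w samples as the first, and the tumor tissue and the longer MCLI cannot be told apart. Apoa2 and Apoc3 were again lower, and Apob was higher. Of the 10 genes, 3 passed the test (1 higher and 2 lower), where 19.2% of all genes tested passed it, 12.2% higher and 6.98% lower. Higher genes were 63.6% of all called as deposited, 48.8% after median-ratio scaling, 46.9% after quantile normalization and 72.2% at the same summed FPKM. The samples did not overlap for 2 genes that were higher (Apoa1 and Apob) and 6 that were lower, against 34.9% of all genes tested that lay apart and higher and 19.6% that lay apart and lower. The median log2 fold change of the 10 genes was -0.52 and that of all genes tested 0.12.

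Apob, of which a single molecule forms the backbone of each VLDL particle, was at 389 and 556 FPKM in C 12w against 217 to 288 in C 8w. Its log2 fold change was 0.88 (SE 0.23, limma adjusted p = 0.0329). The C 12w samples of Apoa2 were at 2543 and 1993 FPKM, both under the lowest C 8w sample of 4213, with a log2 fold change of -1.13 (SE 0.23, limma adjusted p = 0.0148). Apoc3 was at 859 and 380.1 FPKM against 1242 to 1489.8, and its log2 fold change was -1.21 (SE 0.31, limma adjusted p = 0.0307). Both Apoc3 values were below C 8w, but they differed 2.26-fold from each other.

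Another 5 genes lay apart from C 8w without passing the test. Apoa1 was at 6859 and 4638 FPKM, both above C 8w, with a log2 fold change of 0.87 (SE 0.27, limma adjusted p = 0.0569). Apoc1 at 5307 and 3685 FPKM (log2 fold change -0.78, SE 0.27, limma adjusted p = 0.0709) and Apom at 291 and 324 (-0.53, SE 0.17, limma adjusted p = 0.0585) lay below it. So did Apoh at 1181 and 995 FPKM (-0.51, SE 0.19, limma adjusted p = 0.0946) and Apoe at 5076 and 4047 (-0.29, SE 0.23, limma adjusted p = 0.392). The ratio of Apoa1 to Apoa2 within a sample was 2.70 in 2e and 2.33 in 3e, both above the 0.593 to 0.659 of C 8w.

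**Figure D3:**
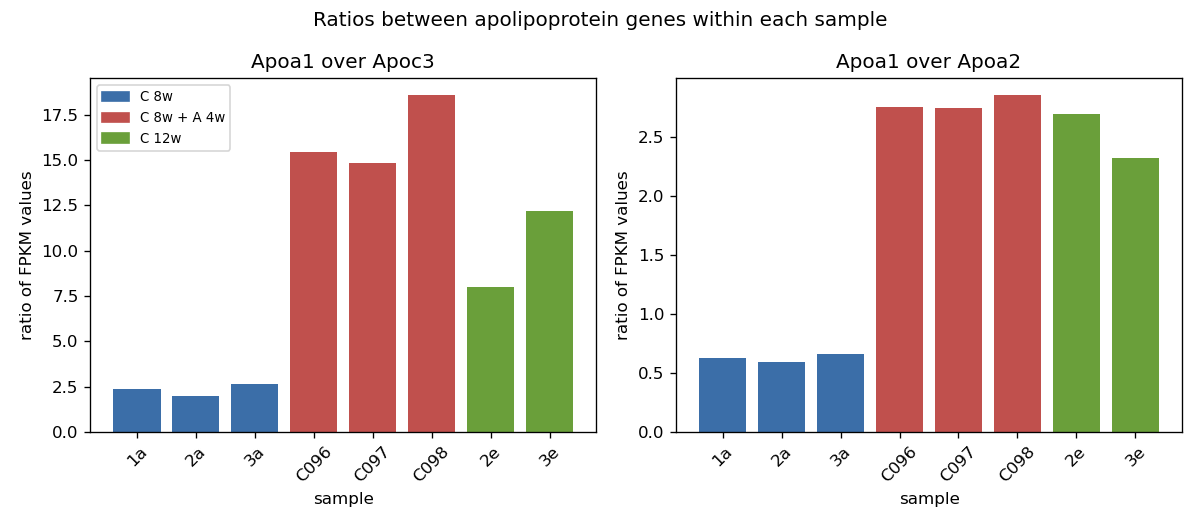
Ratio of the FPKM of Apoa1 to that of Apoc3 (left) and to that of Apoa2 (right) in each of the 8 samples, as bars from 0 on linear axes, coloured by group. The ratio to Apoc3 is 2.0 to 2.63 in C 8w, 14.8 to 18.6 in C 8w + A 4w, and for C 12w it is 7.98 and 12.2; the ratio to Apoa2 is below 1 in C 8w and above 2 in the 5 other samples.

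All 3 calls were lost in a fit of C 8w and C 12w alone (limma adjusted p 0.0548 to 0.0788, 5 of the 10 genes with an unadjusted p under 0.05) and in a fit without the filter on low values (0.0637 to 0.155, 4 of the 10), and they changed with single samples of all 3 groups. No gene of the 10 was called by limma without 1a (6 had an unadjusted p under 0.05) or without 3a (5), 1 was called without 2a or without C098, and 6 without 2e, and the call of Apob was lost without 3e (limma adjusted p = 0.12) as was that of Apoc3 (0.0529).

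The C 12w samples differed from each other far more in some of the 10 genes than in others. Apoa4 was at 3800.4 FPKM in 2e and at 83.0 in 3e, a 45.8-fold difference, whereas the 3 C 8w samples lay between 180.4 and 283. The C 12w samples thus stood on both sides of C 8w, and the log2 fold change of 1.41 had an SE of 1.29 (limma adjusted p = 0.454). A fit without 2e or 3e leaves 1 sample in C 12w, and its spread is then assumed to be that of the other groups, which for Apoa4 the samples 2e and 3e do not bear out. In such fits the log2 fold change of Apoa4 was 4.16 without 3e (limma adjusted p = 0.00326) and -1.35 without 2e (0.0803), and that of Apoa5 0.12 without 3e (0.693) and -1.49 without 2e (0.000866). On the log2(FPKM + 1) scale the difference of 5.50 in Apoa4 was the third in size of the 10244 genes tested, after Klhl13 (4.14 in 2e and 540.5 FPKM in 3e) and mt-Atp6 (0 and 49.5). Apoa5, next to Apoa4 on chromosome 9, was at 352 FPKM in 2e and 115 in 3e, a 3.07-fold difference, and overlapped C 8w (log2 fold change -0.69, SE 0.39, limma adjusted p = 0.227). Apoa4, Apoa5 and Apoc3, 3 of the 4 genes of that cluster, were the members at least 2-fold apart, each higher in 2e, while Apoa1 in the same cluster was 1.48-fold higher in 2e. Of the 10 genes 8 were higher in 2e, of all genes tested 39.2%, and 6.83% of all genes tested were at least 2-fold apart. Of 39 genes for other plasma proteins 12 were at least 2-fold apart, all higher in 2e, and of 12 other apolipoprotein and HDL-associated genes tested 7 were, all higher in 2e. The differences between 2e and 3e are given as values and were not tested.

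**Figure D4:**
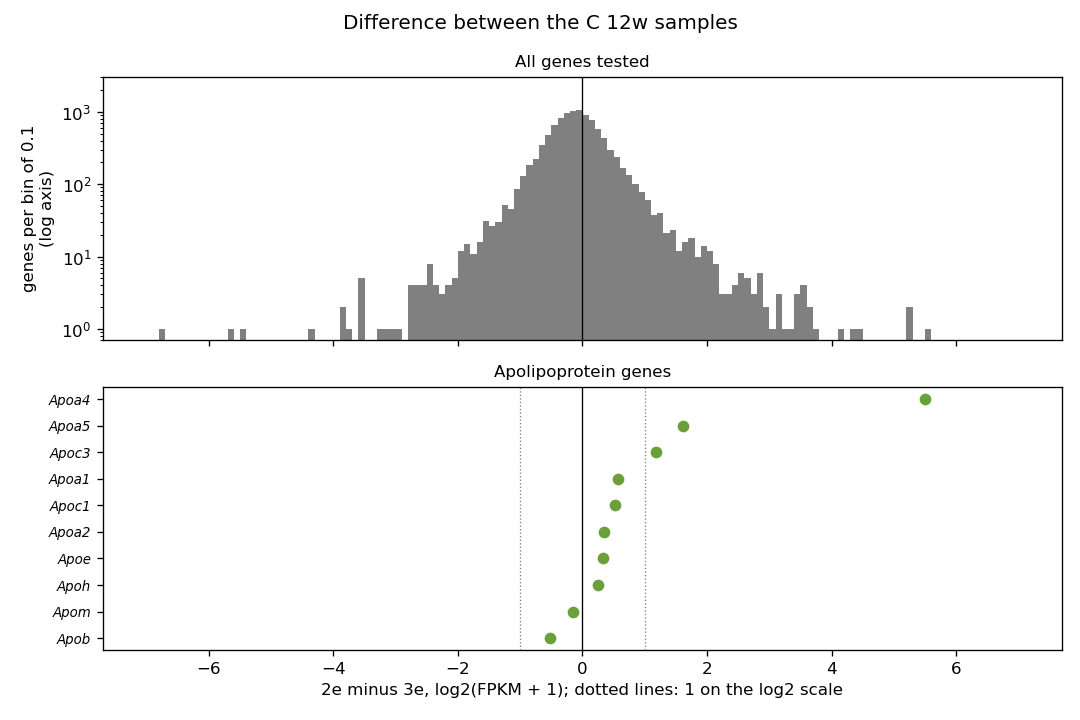
Difference between the C 12w samples, 2e minus 3e on the log2(FPKM + 1) scale (horizontal axis), as a histogram of all 10244 genes tested (top, number of genes per bin on a log axis) and as points for the 10 apolipoprotein genes (bottom). Apoa4 at 5.50 lies at the right edge of all genes, Apoa5 at 1.61 and Apoc3 at 1.17 lie beyond the dotted line at 1, and Apom and Apob lie below 0.

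Markers of other cell types differed between these samples as well. The summed FPKM of 10 cholangiocyte markers was 41.5 in 2e and 361 in 3e, 15.4 to 23.3 in C 8w and 48.4 to 53.7 in C 8w + A 4w. Spp1 alone gave 310.7 FPKM of the sum in 3e and 22.2 of that in 2e, and the 9 other markers summed to 50.3 in 3e, 19.2 in 2e, 7.15 to 11.5 in C 8w and 25.3 to 37.2 in C 8w + A 4w. The sum of 10 intestine markers, looked at because Apoa4 is an intestinal gene, was 68.3 in 2e and 44.5 in 3e, above the 15.6 to 25.3 of C 8w and the 19.95 to 40.04 of C 8w + A 4w. Fabp2, a fatty acid binding protein, gave 64.2 FPKM of the sum in 2e and 28.7 of that in 3e, and the 9 others summed to 4.01 in 2e and 15.8 in 3e, the opposite order. Of the 10 markers 7 were below 1 FPKM in all 8 samples, of which 2 were at 0 throughout. The part of these differences in the apolipoprotein values was not tested. Of the 50-base windows of the Apoa4 transcript 60.9% also occur in annotated antisense transcripts of the locus (Gm10680 and Gm47528), which the table does not list, and 16.3% of those of Apoa5 in Gm47544. Whether the counting used strand is not given in the sources used here, so reads of these pairs cannot be told apart. The other 8 genes shared no window with another gene.

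The third comparison set the groups that ended after 12 weeks side by side, C 8w + A 4w against C 12w. The SALI, the shorter MCLI, the tissue (liver or tumor) and the series of codes cannot be told apart in it. Apob was lower in C 8w + A 4w, at 221 to 316 FPKM against 389 and 556 in C 12w, with a log2 fold change of -0.75 (SE 0.23, limma adjusted p = 0.0375). It was the single call among the 10 genes, where 32.8% of all genes tested passed the test, 17.4% higher and 15.4% lower. Higher genes were 53.1% of all called as deposited and 35.9% at the same summed FPKM. No gene of the 10 was higher by limma, with or without adjustment. The samples of Apoe also lay apart, lower in C 8w + A 4w (log2 fold change -0.48, SE 0.23, limma adjusted p = 0.152), so that 2 of the 10 lay apart, both lower, where 52.3% of all genes tested lay apart and 24.2% were lower. The other 8 genes overlapped, with log2 fold changes between -1.18 (Apoa4) and 0.23 (Apoh). For Apoa1 the 95% interval ran from -0.46 to 0.80 and for Apoa2 from -0.51 to 0.55. Apob was called in none of the fits that left out a sample of C 8w or C 8w + A 4w (limma adjusted p 0.0505 to 0.0982, 1 gene of the 10 with an unadjusted p under 0.05 in each), nor without 3e (0.160), in a fit of these groups alone (0.0938) or without the filter on low values (0.0675). With 1 sample left in C 12w and its spread taken from the other groups, the fit without 2e called 3 genes, Apoa4 and Apoa5 among them as higher in C 8w + A 4w (limma adjusted p = 0.0443 and 0.0305), and the fit without 3e called 4, all lower (Apoa4, Apoa5, Apoc3 and Apoe), so the direction of Apoa4 and Apoa5 was set by which sample stood for C 12w. In this comparison 2 of 13 hepatocyte markers were higher and 5 lower, 2 of 10 stellate cell and fibroblast markers higher and 2 lower, 1 of 8 cholangiocyte markers higher and 1 lower, and 11 of 22 genes that every cell uses higher and 2 lower, and their part in the apolipoprotein values was not tested.

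The genes that surround the apolipoproteins in lipoprotein biology were read from lists for the other apolipoproteins and HDL-associated proteins, particle assembly, lipases, receptors, transcription regulators and other plasma proteins. Relative to C 8w, 6 of the 12 other apolipoprotein and HDL-associated genes tested fell in C 8w + A 4w and none rose, also without adjustment (median log2 fold change -1.06). Pon1, an HDL-bound esterase, was at 361, 267 and 301 FPKM in the C 8w mice and at 75.5, 82.8 and 66.8 in C 8w + A 4w (log2 fold change -2.03, SE 0.26, limma adjusted p = 0.000585). The acute phase HDL protein Saa1 fell from 5.14 to 7.29 FPKM to 0.167 to 0.720 (limma adjusted p = 0.0183). Of 18 genes of particle assembly and lipidation 2 rose (11.1%) and 3 fell (16.7%), with a median of 0.02, where 25.3% of all genes tested rose and 14.1% fell. The cargo receptor Surf4 and the export factor Mia2, which serve secretion of bulky particles from the endoplasmic reticulum, rose by log2 fold changes of 0.68 and 0.54 (limma adjusted p = 0.00705 and 0.0270), and the triglyceride synthase Dgat2 and the lipid droplet protein Cideb fell by 1.01 and 0.62 (0.0151 and 0.0203).

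Of the genes of lipolysis and of uptake, 8 of 11 and 10 of 13 had a log2 fold change below 0 in C 8w + A 4w, as had 39.6% of all genes tested (49.0% after median-ratio scaling). By the test, 25.3% of all genes tested rose and 14.1% fell. Of 11 lipase and lipase regulator genes 1 rose and 5 fell (9.09% and 45.5%, median -0.73). The carboxylesterase Ces1d fell by 2.54 on the log2 scale (limma adjusted p = 0.00535) and the triglyceride lipase Pnpla2 rose by 0.58 (0.0104). Of 13 receptor and uptake genes 1 rose and 5 fell (median -0.33): Vldlr, a receptor of Apoe-bearing particles, rose by 0.98 (limma adjusted p = 0.00104).

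Among 24 transcription regulators of these genes 1 rose and 10 fell (median -0.43). Srebf1, the regulator of fatty acid synthesis, was at 42.9, 60.7 and 46.8 FPKM in the C 8w mice and at 10.02, 14.7 and 17.2 in C 8w + A 4w (log2 fold change -1.79, SE 0.35, limma adjusted p = 0.00463), and Mlxipl, the carbohydrate-responsive regulator, fell by 1.21 (0.0114). Rora rose by 0.49 (limma adjusted p = 0.0364). Of the 39 genes of other plasma proteins tested 1 rose and 23 fell, and their median was -1.06. Alb, which is on this list and among the hepatocyte markers, was not tested. The filter asks for 1 FPKM in 4 or more samples, so a gene that reaches it in a single group is left out. Such genes, higher or lower in C 8w + A 4w, are missing from these counts. The share of falls among the 39 genes, 59%, was above the 40% of the apolipoprotein genes and the 14.1% of all genes. This difference between the lists was not tested. In the same comparison 9 of 13 hepatocyte markers tested fell and 1 rose (Ass1), 2 of 8 cholangiocyte markers rose, a share of 25% where 25.3% of all genes tested rose, and none fell, also without adjustment, and of 22 genes that every cell uses 12 rose, Tpt1 and Rpl10 the most, and 4 fell (median 1.01). Of 10 endothelial markers 5 fell and 1 rose (Lyve1), a share of falls of 50%. The part of these differences in the apolipoprotein values was not tested.

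**Figure D5:**
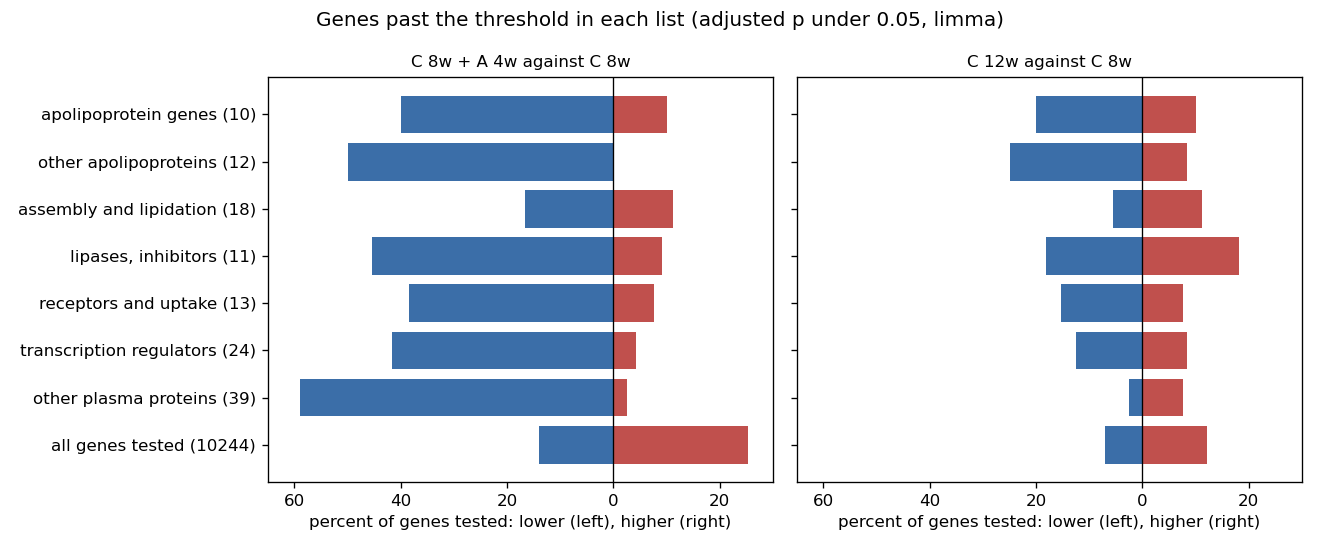
Percent of the genes tested in each list that were lower (blue, to the left) or higher (red, to the right) at a limma adjusted p under 0.05, for C 8w + A 4w against C 8w (left) and C 12w against C 8w (right), with the number of genes tested in brackets. In the left panel 40% of the apolipoprotein genes, 59% of the other plasma protein genes and 14.1% of all genes tested are lower; in the right panel these are 20%, 2.56% and 6.98%.

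In C 12w against C 8w fewer genes were called in all, 12.2% of all genes tested as higher and 6.98% as lower, and the counts of the lists are given beside these shares. Of the 12 other apolipoprotein and HDL-associated genes 1 rose and 3 fell (median -0.42). Clu, a chaperone of plasma also known as apolipoprotein J, was at 707 and 639 FPKM in C 12w against 284 to 319 (log2 fold change 1.13, SE 0.18, limma adjusted p = 0.00574). Pon1 was at 78.1 and 36.5 FPKM (log2 fold change -2.50, SE 0.29, limma adjusted p = 0.00191), and Saa4 fell by 1.69 (0.00776). Apobec1, which edits the Apob transcript to the short form, was at 12.3 and 9.67 FPKM against 4.84 to 5.01, a log2 fold change of 1.00 (SE 0.27, limma adjusted p = 0.0341). The table holds 1 value of Apob per sample and does not separate edited from unedited transcripts. Of the 18 assembly genes 2 rose and 1 fell, of 11 lipase genes 2 rose and 2 fell, of 13 receptor genes 1 rose and 2 fell, and of 24 transcription regulators 2 rose and 3 fell. Lcat, the enzyme that Apoa1 activates, fell by 0.81 (limma adjusted p = 0.0282), Angptl8, a secreted regulator of lipoprotein lipase, rose by 1.08 (0.0148), Foxa3 rose by 1.201 (0.0217) and Cebpb fell by 1.26 (0.0112). Of the 39 other plasma protein genes 3 rose and 1 fell, with a median of 0.28 against -0.52 for the apolipoprotein genes. Of the cell type markers tested, 4 of 8 cholangiocyte markers rose and none fell, also without adjustment by limma, 2 of 10 stellate cell and fibroblast markers rose (Col3a1 and Col1a2) and 1 fell (Dcn), 5 of 10 endothelial markers fell and none rose, also without adjustment, and 3 of 13 hepatocyte markers fell. Their part in the apolipoprotein values was not tested.

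In C 8w + A 4w against C 12w the list of other plasma proteins held 2 genes that were higher and 28 of 39 that were lower (median -1.41), where the apolipoprotein genes held 1 lower of 10 (median -0.21) and all genes tested 17.4% higher and 15.4% lower. The difference between the lists was not tested, and Alb, which missed the filter, is not among the 39. Apof and Apon, minor apolipoproteins, were lower in C 8w + A 4w by 1.95 and 2.18 (limma adjusted p = 0.0145 and 0.0122), and Apoc2, the activator of lipoprotein lipase, was higher by 1.202 (0.0308). Of the 50-base windows of Apoc2 78.3% occur in Gm44805, so its low values of 0.878 to 7.44 FPKM are uncertain. Mttp, which loads lipid onto Apob, was at 145 to 186 FPKM in C 8w + A 4w and at 97.4 and 54.5 in C 12w (log2 fold change 1.14, SE 0.24, limma adjusted p = 0.00775), the opposite order of Apob itself, while Apobec1 was lower by 1.17 (0.0113).

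Across the 8 samples some of the 10 genes ran together. Over log2(FPKM + 1), Pearson's r was 0.95 between Apoa2 and Apoc1, 0.947 between Apoc1 and Apoc3 and 0.929 between Apoa2 and Apoc3, and that of Apoa1 was -0.776 with Apoa2 and -0.737 with Apoc3. These are descriptions of 8 samples in 3 groups that share their group differences and their libraries. Among genes that are not members, the closest in pattern to 9 of the 10 were Acads for Apoc1 (r = 0.995, 8 samples), Ccs for Apoc3 (0.993), Slc2a8 for Apoe (0.987), Angptl6 for Apoa2 (0.985), Bcl10 for Apoa4 (0.981), Atg10 for Apoa5 (0.978), Grik5 for Apom (0.9748), Arpc1b for Apoa1 (0.974) and Clybl for Apoh (0.974), each chosen as the highest of 10234 genes.

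Between samples of one liver group the 10 genes spanned a median range on the log2 scale of 0.27 in C 8w, where all genes tested spanned 0.20, and of 0.37 in C 8w + A 4w, where all spanned 0.29. In C 8w none of the 10 spanned 1 or more, and 0.840% of all genes tested did. Apoa4 did so in C 8w + A 4w, at 168 to 477 FPKM, and the other 9 did not, where 3.89% of all genes tested did.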

How the data were processed

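RNA from 8 Fah-/- mice in 3 groups was sequenced by the authors (TruSeq RNA libraries). The deposited values are FPKM per gene in one table, used as deposited. Per the labels, the submitters' processing notes list Bowtie 0.12.2 and the build mm8, and the quantifier and annotation are not given in the sources used here. No coordinates were therefore tied to the deposited values. Gene order comes from GENCODE M21, and promoter sequences and their positions from RefSeq on GRCm38.p6. The study's methods name no test for differential expression. Genes that reached 1 FPKM in 4 or more of the 8 samples were compared as log2(FPKM + 1), a scale that understates the change of low genes, with limma 3.58.1 (lmFit, eBayes with a trend) in R 4.3.3. All 8 samples entered one fit of 3 groups, tests were two-sided, and p-values were adjusted by Benjamini-Hochberg over the 10244 genes tested (threshold 0.05). The groups came from the sample labels, each sample is 1 mouse per the study's design, and n was 3, 3 and 2. The test was checked on simulated data.

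The 10 genes and all other lists were chosen with earlier results of these data known. All 10 are reported. Of each other list at most the 2 largest rises and 2 largest falls past the threshold with groups that did not overlap are named, beside Fah, Alb and Gapdh, and for each of the 10 the gene with the highest Pearson correlation over the 8 samples. Klhl13, mt-Atp6 and Fabp2 were named after their values were seen. Some genes that this rule takes are not reported here. Relative depth, read from the steps between low values, was 1.00 to 1.06 times that of 1a in the other samples of C 8w and C 12w and 0.973 times that of C096 in C097 and C098. Alternatives were another pseudocount, other floors, other scalings, no trend, fits of the 2 groups compared, a fold change limit, samples left out in turn and a replicate block. Shared sequence was counted over GENCODE M21 transcripts with Python 3.11.15.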

Additional observations from a re-analysis of the deposited data

How the results depend on the processing

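Of the 5 genes called in C 8w + A 4w against C 8w, Apoc3 was called under each of 17 alternatives (log2 fold change -1.89 to -1.62), Apoa2 under 16, Apoa1 under 15, Apoc1 under 13 and Apoe under 9. The number called was 1 without a filter, 3 with a fold change limit of 1 on the log2 scale, and 3 to 5 with a sample of these groups left out. It was 7 in a fit of the 2 groups alone and 7 at the same summed FPKM, with Apoa5 and Apom added in both. In C 12w against C 8w it was 0 without a filter and 0 in a fit of the 2 groups alone (4 and 5 at an unadjusted p under 0.05, limma), 5 with a floor of 10, 5 after quantile normalization, 7 without a trend, and 0 to 6 with a sample left out. In C 8w + A 4w against C 12w it was 0 without a filter, in a fit of 2 groups or with the fold change limit (1 unadjusted in each, limma), 2 at the same summed FPKM and without a trend, and 0 to 4 with a sample left out. The number of all genes called moved by more than 1.5 times with a floor of 10 (1844, 851 and 1625 in the 3 comparisons, in the order given), with the fold change limit (1128, 533 and 1177), in the fit of 2 groups for the third comparison (1996), without 1a in the first (2469), and without 1a, 2a, 3a or 2e in the second (677, 941, 720 and 3702). A floor of 10 also leaves fewer genes to test, so its counts cannot be set directly against those at the floor of 1. The causes were not tested.

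Numbers 2 and 3 occur in both C 8w and C 12w but belong to different mice, and the differences 2e minus 3e and 2a minus 3a correlated at -0.189 over 10244 genes. With the number as a replicate block, 252 genes and 0 of the 10 were called (0 unadjusted, limma). The crossed pairing, added after seeing the data, called 16 genes and 0 of the 10 (1 unadjusted, limma). In both fits only 2a, 3a, 2e and 3e bear on the difference, since 1a has no partner in C 12w. The loss of calls therefore cannot be put down to the pairing rather than to the fewer samples.

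Directions reversed for values that were not called. In C 8w + A 4w against C 8w, Apob was at -0.00385 after median-ratio scaling, and with a sample left out Apoa4 ran from -0.24 (without C096) to 0.51. In C 12w against C 8w, Apoa4 ran from -1.35 (without 2e) to 4.16 and Apoa5 from -1.49 to 0.12 (both ends without 2e or 3e). In C 8w + A 4w against C 12w, quantile normalization gave 0.13 for Apoc1 and -0.073 for Apom, and the same summed FPKM gave -0.014 for Apoa1, -0.17 for Apoa2 and -0.077 for Apom. There Apoa2 was at -0.00256 without C096 and -0.0155 without C098, and between the fits without 3e and without 2e the values ran from -0.11 to 0.45 for Apoa1, -0.16 to 0.19 for Apoa2, -3.93 to 1.57 for Apoa4, -1.03 to 0.57 for Apoa5, -0.46 to 0.068 for Apoc1 and -1.13 to 0.044 for Apoc3. Adjusted p-values were under the threshold at both ends for Apoa4 and Apoa5 and at the lower end for Apoc3, but each of these fits has 1 sample in C 12w, which is assumed to vary like the other groups. The number of samples, 2 in C 12w, and the unknown depth limit all of these values.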
